A study of Mus musculus with 40 samples.

Results

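The small leucine-rich proteoglycans are secreted matrix proteins built on a core of leucine-rich repeats, and 9 of their genes were followed here through every treatment of a cultured fibroblast experiment: Dcn (decorin), Bgn (biglycan), Aspn (asporin), Lum (lumican), Fmod (fibromodulin), Prelp, Omd (osteomodulin), Ogn (osteoglycin, also called mimecan) and Podn (podocan). The genes were chosen by name, as a list of the family's members, with no threshold on a measured value, though earlier results of these data were known when the list was made. They are 9 of the 55414 gene rows of the count table, and all 9 were among the 25210 genes with at least 10 counts over the 40 libraries, so that no member was lost to the filter on low counts. The lowest count of any member was 0, for Omd in 2 libraries, and the highest was 475765, for Bgn.

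Cardiac fibroblasts were isolated from mice of the C57BL/6J background whose 2 copies of Map3k7, the gene of the kinase TAK1, carry loxP sites around an exon (TAK1fl/fl), and every group shared that genotype. The cells received an adenovirus encoding LacZ, a control enzyme that left TAK1 intact, or iCre, a Cre recombinase that removes the floxed exon in the cells the virus reaches. Under serum starvation they were then left without ligand (Con) or given bFGF at 20 ng/ml, TGFβ at 10 ng/ml, IL-1β at 15 ng/ml or TNFα at 10 ng/ml for 24 h, after growth in medium that itself held bFGF at 20 ng/ml. Polyadenylated RNA was sequenced in 4 replicates of each of the 10 groups of virus and ligand, and the study describes the replicates as biological and from male mice.

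Small leucine-rich proteoglycans bind collagen fibrils, limit how fast and how thick the fibrils grow, and hold growth factors of the TGFβ family in the matrix. Class I contains decorin and biglycan, which carry chondroitin or dermatan sulphate chains, and asporin, which carries none. Class II contains lumican, fibromodulin, PRELP and osteomodulin, which bear keratan sulphate or tyrosine sulphate, class III contains osteoglycin, and class V contains podocan. In the heart fibroblasts are a main source of these proteins, and decorin, lumican and osteoglycin are widely used to recognise resident cardiac fibroblasts.

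The libraries held 25360947 to 66160732 counts, with a median of 36183962. Map3k7 itself was present at 153 ± 6.51 CPM (counts scaled to a common library size with edgeR; mean ± SD, n = 4) in LacZ Con and 127 ± 4.27 CPM in iCre Con, and it was lower in iCre under TGFβ, IL-1β and TNFα (log2 fold changes -0.67, -0.82 and -0.71). The Con and bFGF differences did not pass the test (-0.28, adjusted p = 0.137, and -0.40, adjusted p = 0.351) but were called with the replicate number as a block (adjusted p = 0.00393 and 0.000409). Because counts over the whole gene include the exons outside the deletion, they measure the deletion only in part. All 8 fibroblast markers were detected in every library, with a summed level of 13975 to 62892 CPM. That sum is weighted towards collagen, with medians of 10755 CPM for Col3a1, 5891 CPM for Col1a2 and 4905 CPM for Col1a1. The median was 3277 CPM for Vim, 1210 for Pdgfra, 556 for Thy1, 548 for Ddr2 and 32.8 for Tcf21. The endothelial, leukocyte, epicardial and Schwann cell lists reached at most 13.4, 150.2, 6.66 and 5.33 CPM, the cardiomyocyte list 110.4 CPM, nearly all of it Tnnt2 with Myh6 at 0 in 37 of 40 libraries, and the pericyte and smooth muscle list 143 to 1985 CPM. In bulk samples fewer cells of a type and less RNA per cell cannot be told apart.

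Replicate 2 stood apart from replicates 1, 3 and 4 for most of the family, and the direction differed between members. Prelp was lowest in replicate 2 in 10 of 10 groups, by 1.38 ± 0.25 below the group mean on the log2 CPM scale (SD over the 10 groups), and Dcn and Bgn were lowest there in 9 groups each (mean deviations -0.45 and -0.39). Ogn and Podn were highest in replicate 2 in 9 groups each (1.21 and 1.19) and Aspn in 8 (0.94). Fmod was lowest in replicate 2 in 7 groups and highest in 2, and Lum was lowest in 8. Omd was highest there in 7 groups (0.75), but replicate 4 lay further off, being lowest in 9 groups (-1.10). For Fmod replicate 1 was highest in 8 groups (1.46). In the replicate 2 libraries the summed pericyte and smooth muscle, leukocyte and cardiomyocyte markers were lowest in 10 of 10 groups, and the endothelial markers were highest in 10 of 10, at 4.45 to 13.4 CPM against 0.746 to 6.01 CPM in the other libraries. The part of these cells in the members' values was not tested. Libraries with the same replicate number deviated together, which a model without the replicate number as a block does not take into account. Results are given first without that block, after the study's methods, which name none. The blocked value is added for calls that it changed. A difference that did not pass without the block is therefore not shown to be absent. The replicate 1 libraries carry a separate run of library numbers, so that the fits without replicate 1 are also fits within the other run.

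**Figure D1:**
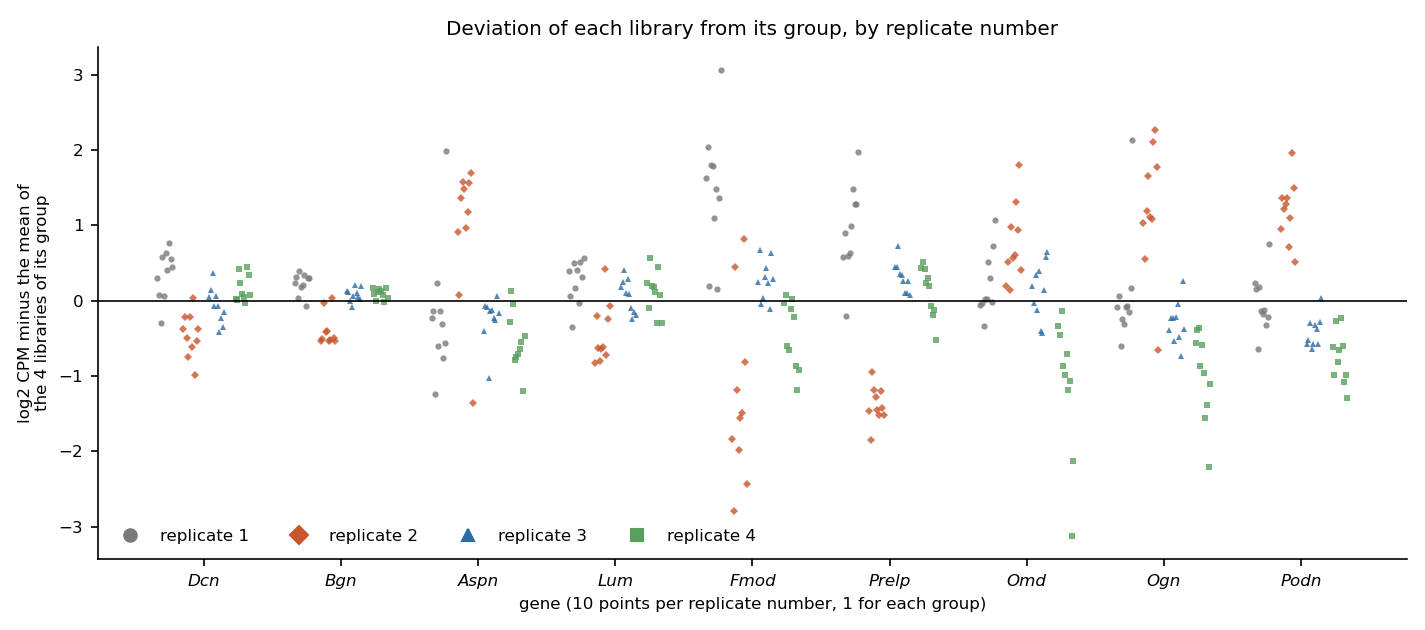
Deviation of each library from the mean of the 4 libraries of its group (vertical axis, log2 CPM after adding 0.05 CPM) for the 9 genes (horizontal axis), with 10 points for each replicate number, 1 for each group. In most groups replicate 2 lies below the other replicates for Prelp, Dcn and Bgn and above them for Ogn, Podn and Aspn.

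The genes of 3 members, Aspn, Omd and Ogn, lie next to each other in the same orientation on chromosome 13 (GRCm38, GENCODE M21), at chr13:49544443-49567565, chr13:49582462-49592822 and chr13:49608046-49624501 on the plus strand, and a further family gene, Ecm2, lies before them on the same strand. Dcn (chr10:97479609-97518143) and Lum (chr10:97565128-97572703) are neighbours on chromosome 10, Fmod (chr1:134037254-134048277) and Prelp (chr1:133910304-133921414, minus strand) lie near each other on chromosome 1, Bgn is at chrX:73483602-73495933 and Podn at chr4:108014791-108096445 on the minus strand. Exons of Aspn overlap those of Cenpp on the opposite strand, and exons of Prelp overlap those of the opposite-strand gene Gm15851. The strand setting of the counting is not given in the sources used here, so that reads in those overlaps cannot be assigned with certainty. Gm15851 had at most 36 counts in any library.

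The RefSeq windows from 250 bases before to 50 bases after the transcription start are shown for the 3 genes of chromosome 13, which were lower in iCre under TNFα, and for Bgn, the member that rose with TGFβ in both viruses. All are of build GRCm38.p6 and read 5′ to 3′ on the gene's strand, and capitals mark matches to 4 short motifs searched on both strands. They are the TATA box TATAAA, the CCAAT box, the AP-1 motif TGANTCA and the SMAD motif CAGACA.
Aspn, chr13:49544193-49544492: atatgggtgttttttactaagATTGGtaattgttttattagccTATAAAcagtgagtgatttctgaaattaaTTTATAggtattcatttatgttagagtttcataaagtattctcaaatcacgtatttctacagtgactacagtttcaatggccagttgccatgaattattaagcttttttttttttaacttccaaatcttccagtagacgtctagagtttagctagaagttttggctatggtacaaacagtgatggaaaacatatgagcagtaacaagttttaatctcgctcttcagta
Omd, chr13:49582212-49582511: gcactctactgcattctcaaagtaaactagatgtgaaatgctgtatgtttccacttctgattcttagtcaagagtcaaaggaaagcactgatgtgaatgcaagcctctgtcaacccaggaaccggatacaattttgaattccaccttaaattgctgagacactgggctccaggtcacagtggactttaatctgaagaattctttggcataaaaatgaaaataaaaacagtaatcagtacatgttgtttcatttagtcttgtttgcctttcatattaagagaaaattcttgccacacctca
Ogn, chr13:49607765-49608064: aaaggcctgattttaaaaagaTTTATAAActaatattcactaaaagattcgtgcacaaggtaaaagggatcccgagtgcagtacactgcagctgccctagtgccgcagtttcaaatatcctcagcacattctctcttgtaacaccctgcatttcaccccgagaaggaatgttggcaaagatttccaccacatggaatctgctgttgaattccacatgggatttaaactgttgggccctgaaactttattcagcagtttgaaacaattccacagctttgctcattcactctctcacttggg
Bgn, chrX:73483351-73483650: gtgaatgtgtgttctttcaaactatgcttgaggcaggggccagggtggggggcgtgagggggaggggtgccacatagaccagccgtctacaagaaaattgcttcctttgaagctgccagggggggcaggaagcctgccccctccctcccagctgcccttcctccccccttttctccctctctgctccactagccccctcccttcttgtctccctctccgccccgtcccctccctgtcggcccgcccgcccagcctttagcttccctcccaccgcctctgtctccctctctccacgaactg
The 3 chromosome 13 windows were rich in A and T, with 31.0, 37.7 and 42.3% G and C, against 63.7% for Bgn. TATAAA occurred on both strands in the windows of Aspn and, overlapping itself, of Ogn, and in 13.62% of all 32851 windows of the same length, and CCAAT in that of Aspn and in 37.41% of all windows. The TATAAA matches were at offsets of -229 to -178 bases from the transcription start. The AP-1 motif (7.81% of all windows) and the SMAD motif (21.04%) were not found in these 4 windows. Among the member windows not shown, the SMAD motif was found for Prelp and Podn. The AP-1 motif was in none of the 8 member windows. The RefSeq table held windows for 7 of the 9 members, and Dcn and Lum were the others.

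Per kilobase of exon, Bgn was the highest member in every one of the 10 groups, with 48.3% of the summed per-kilobase level of the 9 genes in LacZ Con and 81.7% in LacZ TGFβ. Dcn followed in LacZ Con with 15.7%, then Ogn with 12.6%, Prelp with 9.70% and Lum with 8.70%. Aspn, Fmod and Podn contributed 2.56, 1.40 and 0.86%, and Omd 0.15%. The order below Bgn changed with treatment. Ogn went from 12.6% in LacZ Con to 2.03% in LacZ TGFβ and 0.17% in iCre TNFα, and Dcn reached 28.8% in LacZ IL-1β. The summed CPM of the family was 11138 ± 1936 in LacZ Con, 15926 ± 4193 in LacZ IL-1β and 11233 ± 1842 in LacZ TNFα, and 8699 ± 1582 in iCre Con, 9403 ± 2219 in iCre IL-1β and 8183 ± 2186 in iCre TNFα. These exon lengths are the union of all annotated transcripts, which is longer than the main transcript for some of the genes.

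**Figure D2:**
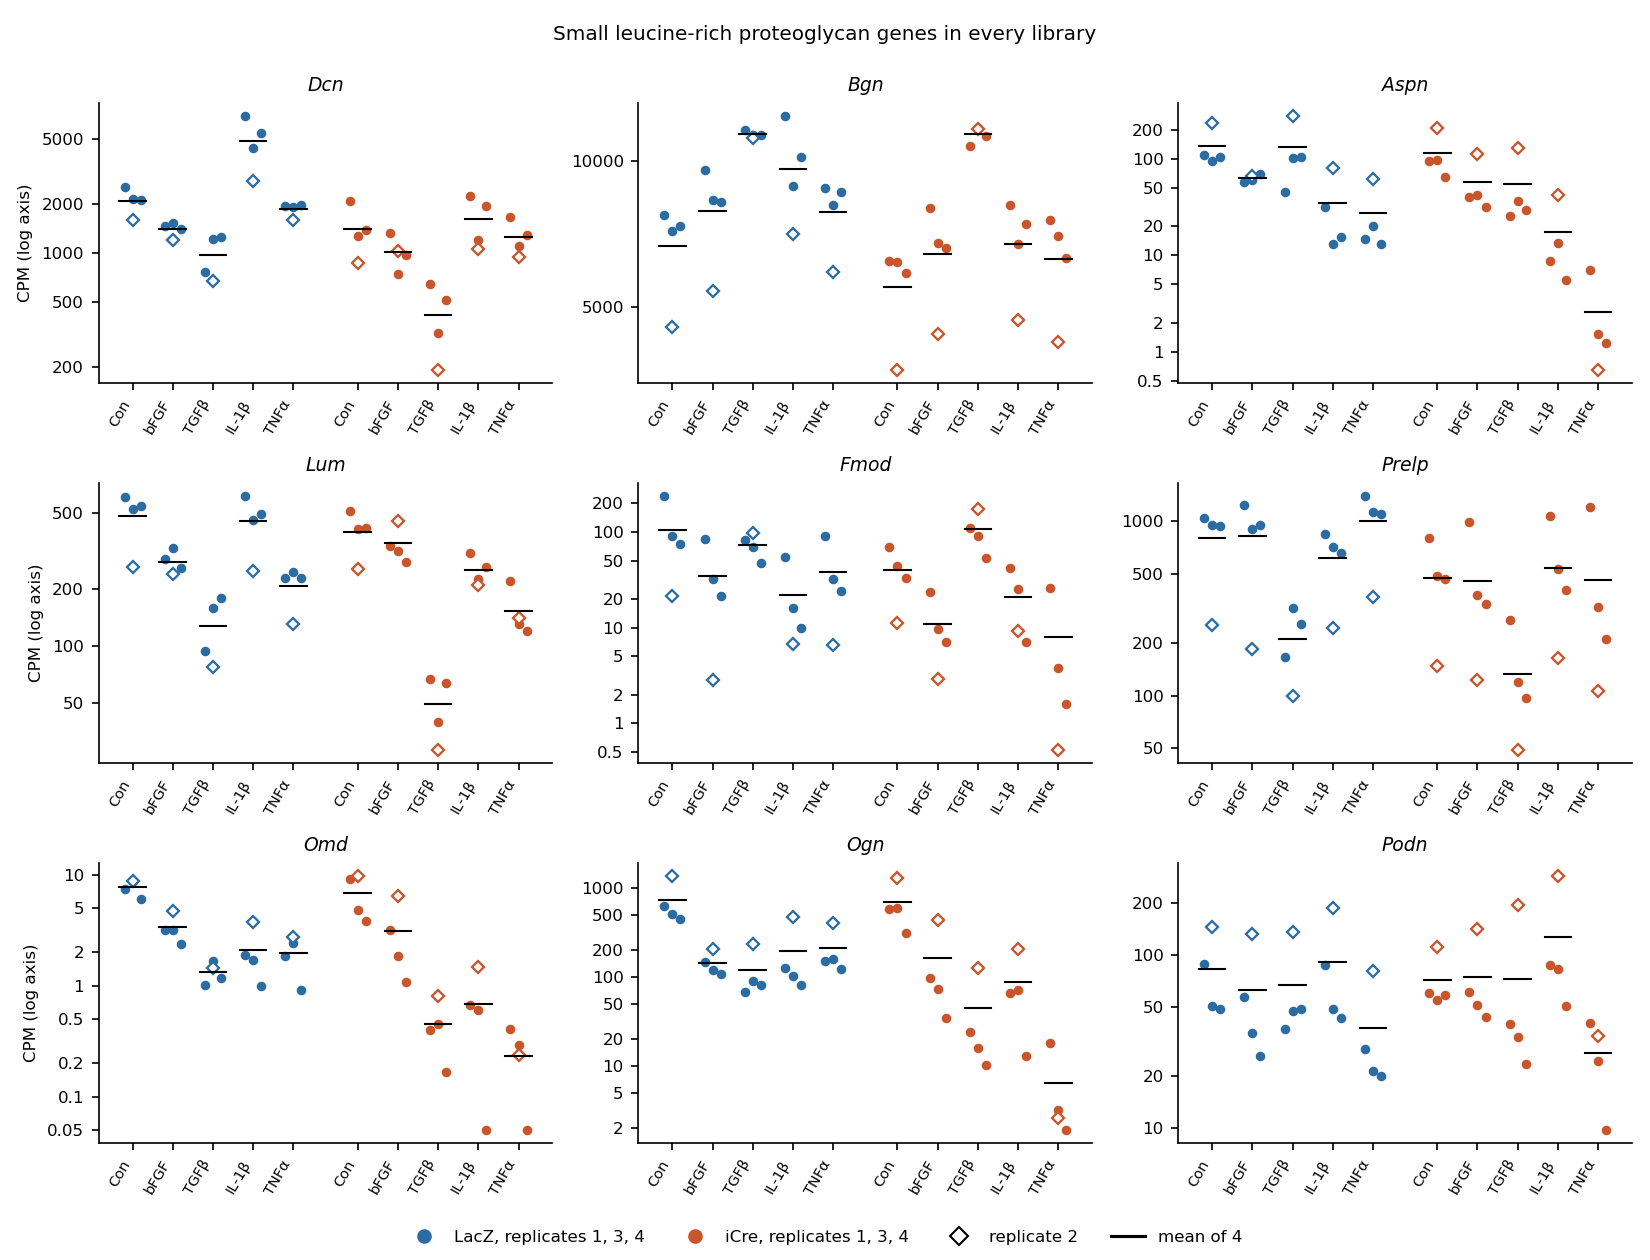
CPM of the 9 genes (vertical axes, log scale) in the 40 libraries of the 10 groups (horizontal axes, LacZ in blue and iCre in orange), with replicate 2 as open diamonds and the mean of 4 libraries as a bar. The Bgn libraries lie close together under TGFβ, Ogn, Omd and Aspn fall furthest in iCre TNFα, and the 2 Omd libraries with no count are drawn at 0.05 CPM.

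Over the 10 groups the mean level of a member varied least for Bgn, 2.07-fold between the highest and the lowest group, and 4.65-fold for Podn, 7.45-fold for Prelp, 9.78-fold for Lum, 11.6-fold for Dcn, 13.4-fold for Fmod, 33.2-fold for Omd, 52.7-fold for Aspn and 113.9-fold for Ogn. When each gene's groups were put in order of their means, nearly all neighbours in the order overlapped in their libraries. The exceptions were Dcn, where LacZ IL-1β was above all other groups and iCre TGFβ below all others, and Lum, where iCre TGFβ was below all others. LacZ Con was the highest group for Ogn, Omd, Aspn and Lum, and iCre TNFα the lowest for Ogn, Omd, Aspn, Fmod and Podn. Bgn was highest in LacZ TGFβ, Fmod in iCre TGFβ, Prelp in LacZ TNFα and Podn in iCre IL-1β.

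The first question was what each ligand did to the family in fibroblasts with intact TAK1. With edgeR's quasi-likelihood test, 6 of 9 members passed an adjusted p of 0.05 in LacZ TGFβ against LacZ Con, 1 higher and 5 lower, where 36.9% of all tested genes passed (17.5% higher and 19.3% lower), and the median log2 fold change was -1.09 over the members and -0.17 over all genes. IL-1β changed 4 members, 1 higher and 3 lower (background 20.7%, 11.1% higher and 9.55% lower, medians -0.38 and -0.10). TNFα lowered 4 and raised none (background 21.3%, 10.9% and 10.4%, medians -1.22 and -0.083), and bFGF lowered 4 and raised none (background 11.6%, 7% and 4.64%, medians -0.79 and -0.026). With the replicate block the called members were 6 for TGFβ, 7 for IL-1β, 8 for TNFα and 8 for bFGF, where 42, 33.5, 35.5 and 27.3% of all genes passed. The 4 ligand comparisons share the same 4 control libraries. Omd and Ogn were lower with all 4 ligands, and these were the only members called in every one of the 4 LacZ comparisons. The member counts also depended on single replicates, and without replicate 3 only 1 member was called for each of IL-1β, TNFα and bFGF (9.52, 10.5 and 1.32% of all genes). Of the 50 member calls in all 19 comparisons 20 were made again in each of the 4 fits that left out one replicate number, and the other 30 kept their sign but missed the threshold in at least 1 of them. In LacZ those made every time were Dcn, Lum, Omd and Ogn for TGFβ, Omd for IL-1β, Omd for TNFα and Ogn for bFGF. In the same comparisons 3 of 4 pericyte and smooth muscle markers were called lower with IL-1β (median log2 fold change -0.95), 2 with bFGF and 1 with TNFα. With TGFβ 1 was higher and 1 lower. Of 3 tested cardiomyocyte markers 2 were lower with TGFβ and 1 each with IL-1β and TNFα. With IL-1β 1 leukocyte and 1 Schwann cell marker were higher. Of 8 fibroblast markers 2 were higher and 2 lower with TGFβ, 1 and 1 with IL-1β, 1 and 1 with bFGF and none and 1 with TNFα. With the block the fibroblast counts were 2 higher and 3 lower with TGFβ and 3 and 3 with IL-1β. They were 1 and 5 with TNFα and 2 and 3 with bFGF. The blocked pericyte and smooth muscle counts were 2 higher and 1 lower with TGFβ and 1 and 3 with IL-1β. They were none and 4 with TNFα and 1 and 2 with bFGF. Other marker lists gained calls with the block as well. The part of all these markers in the changes of the family was not tested.

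**Figure D3:**
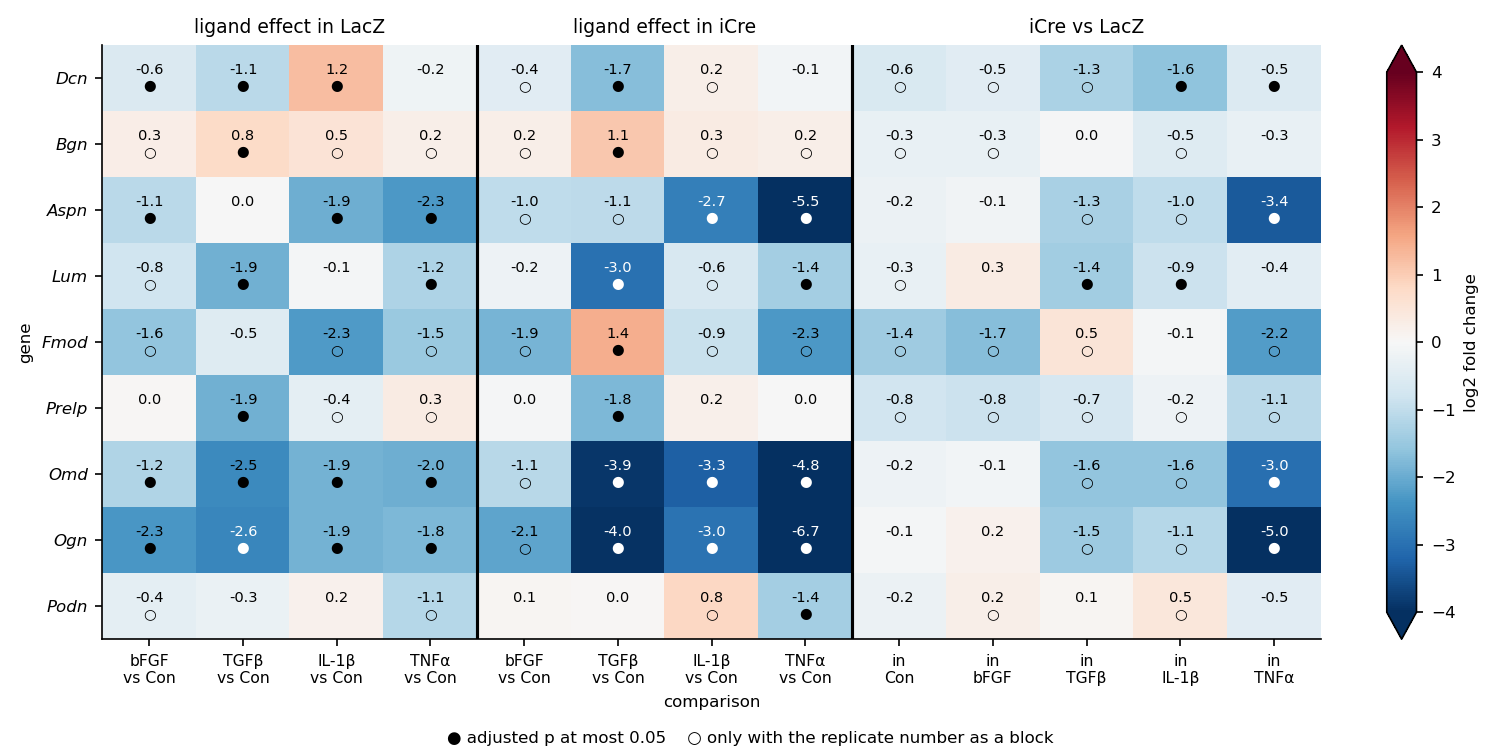
Log2 fold changes (colour, and printed to 1 decimal) of the 9 genes (rows) in the 8 ligand comparisons and the 5 comparisons of iCre with LacZ (columns), with filled circles for an adjusted p of at most 0.05 and open circles where the fit with the replicate number as a block reached that and the fit without it did not. Ogn and Omd are lower with every ligand, Dcn has a filled circle for a rise with IL-1β in LacZ, and filled circles in the iCre and LacZ comparison appear under TGFβ, IL-1β and TNFα.

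Decorin, the dermatan sulphate proteoglycan that binds collagen and TGFβ, rose with IL-1β and fell with TGFβ and bFGF. In LacZ Con its level was 2527, 1583, 2130.3 and 2093 CPM in replicates 1 to 4, in LacZ IL-1β 6880.4, 2735, 4403 and 5428 CPM and in LacZ TGFβ 761, 668, 1210.3 and 1255 CPM. Every IL-1β library was above every Con library and every TGFβ library below. Dcn rose 2.35-fold with IL-1β (log2 fold change 1.23 ± 0.27 SE, adjusted p = 0.0105) and fell by 1.09 on the log2 scale with TGFβ (SE 0.23, adjusted p = 0.00383). It fell by 0.56 with bFGF (adjusted p = 0.0484), and with TNFα its 1924, 1591, 1915 and 1960.5 CPM overlapped the Con range (log2 fold change -0.17 ± 0.15, adjusted p = 0.475). Set directly against each other, TGFβ and IL-1β differed by -2.34 ± 0.32 (adjusted p = 0.000423), and IL-1β and TNFα by 1.40 ± 0.25 (adjusted p = 0.00541). The IL-1β call was lost without replicate 3 (1.30, adjusted p = 0.0636) or 4 (1.18, adjusted p = 0.075), and the bFGF call without replicate 1, 3 or 4, where the values were -0.48, -0.60 and -0.56.

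In iCre cells decorin did not pass the unblocked test with IL-1β. Dcn was 2067, 869, 1261 and 1369 CPM in iCre Con and 2233, 1054, 1192 and 1930.5 CPM in iCre IL-1β, and the libraries overlapped (log2 fold change 0.22 ± 0.30, adjusted p = 0.685; with the block 0.22, adjusted p = 0.011). With the GC correction the value was 0.95 (adjusted p = 0.0898), and with block and correction 0.93 (adjusted p = 2.95e-10), against 1.21 in LacZ in the same fit. With TGFβ it was at 644, 190.2, 321 and 516 CPM (log2 fold change -1.72 ± 0.37, adjusted p = 0.00395). The difference was -0.96 with the GC correction (adjusted p = 0.0662) and -1.05 with block and correction (adjusted p = 1.33e-05). Whether the IL-1β effect differed between the viruses was tested as an interaction, which was -1.02 ± 0.44 (adjusted p = 0.202), -0.96 with the block (adjusted p = 0.00022) and -0.28 with the block and a correction for GC content (adjusted p = 0.26).

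Biglycan, the close relative of decorin and a ligand of Toll-like receptors when released from matrix, was raised by TGFβ in both viruses. Its level was 7740.0, 4538, 7164 and 7358 CPM in LacZ Con and 11633, 11190.1, 11362 and 11346 CPM in LacZ TGFβ, and 6222, 3699.7, 6200.1 and 5869.9 CPM in iCre Con and 10783, 11689, 11739 and 11280.5 CPM in iCre TGFβ. The TGFβ libraries lay close together and above all Con libraries, with a mean of 11383 ± 184 CPM (SD) in LacZ TGFβ against 6700.2 ± 1461 CPM in LacZ Con. The log2 fold changes were 0.78 ± 0.20 in LacZ (adjusted p = 0.0108) and 1.07 ± 0.18 in iCre (adjusted p = 0.000975). The LacZ call was lost without replicate 3 (0.82, adjusted p = 0.0599) and when libraries were scaled to their raw totals, where the value was 0.38 (adjusted p = 0.0914). With IL-1β the LacZ values were 12409, 7065, 8905 and 10231 CPM, higher in each replicate than its own Con library but overlapping overall (0.54 ± 0.25, adjusted p = 0.163). With the block Bgn was called higher with all 4 ligands in both viruses, by 0.54 for IL-1β, 0.25 for TNFα and 0.25 for bFGF in LacZ and by 0.32, 0.22 and 0.24 in iCre. The iCre value with block and GC correction was 0.17 for IL-1β (adjusted p = 0.0326) and 0.11 for TNFα, which was not called (adjusted p = 0.24).

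Asporin, the class I member with a run of aspartate in place of chains and an inhibitor of TGFβ binding to its receptor, fell with both inflammatory ligands and with bFGF. It was at 109, 239, 96.3 and 105 CPM in LacZ Con, 31.5, 79.9, 13.1 and 15.6 CPM after IL-1β and 14.7, 62.0, 20.1 and 13.3 CPM after TNFα. Replicate 2 was the highest in all 3 groups, and every library with IL-1β or TNFα was below every Con library. The log2 fold changes were -1.95 ± 0.54 (adjusted p = 0.0298) and -2.31 ± 0.52 (adjusted p = 0.0109), and -1.08 ± 0.26 with bFGF (adjusted p = 0.0266). With TGFβ the libraries spread from 45.8 to 279 CPM around the Con range (-0.022 ± 0.48, adjusted p = 0.988). TGFβ and IL-1β differed by 1.91 ± 0.63 (adjusted p = 0.0498). The IL-1β and bFGF calls were lost without replicate 1, 3 or 4 (IL-1β -2.01, -1.80 and -1.80; bFGF -1.12, -1.19 and -1.23) and the TNFα call without replicate 3 or 4 (-2.32 and -2.19). In iCre cells Aspn fell with IL-1β (-2.72 ± 0.60, adjusted p = 0.0124) and TNFα (-5.45 ± 0.74, adjusted p = 0.00068). The differences with TGFβ and bFGF were called with the block (-1.25 and -1.07) and without replicate 2 (-1.47 and -1.16). With block and GC correction that with TGFβ was -0.26 and not called (adjusted p = 0.166), and those with IL-1β and TNFα were -1.96 and -4.64 (adjusted p = 5.71e-12 and 0.000116). With the correction alone the IL-1β value was -1.75 and not called (adjusted p = 0.079). Nor was it called without replicate 1 or 3 (-2.59 and -2.70). The TNFα value in iCre ranged from -6.72 to -4.69 over the fits without one replicate, all called.

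Lumican, a class II keratan sulphate proteoglycan that regulates fibril diameter, was lowered most by TGFβ. It stood at 609, 261, 525 and 543 CPM in LacZ Con, 93.9, 77.3, 158 and 178 CPM in LacZ TGFβ and 228, 129.7, 246 and 228 CPM in LacZ TNFα. Both ligand groups were below every Con library. The log2 fold changes were -1.93 ± 0.32 for TGFβ (adjusted p = 0.00088) and -1.22 ± 0.28 for TNFα (adjusted p = 0.0115). With IL-1β the 4 libraries spanned 249 to 614 CPM, close to the Con range (-0.084 ± 0.30, adjusted p = 0.891), and Lum was -1.86 ± 0.32 in TGFβ against IL-1β (adjusted p = 0.00182) and 1.13 ± 0.27 in IL-1β against TNFα (adjusted p = 0.0248). The bFGF difference of -0.79 did not pass (adjusted p = 0.0577) but was called with the block (-0.73, adjusted p = 0.000399), with the GC correction, with DESeq2 and without replicate 2. The TNFα call was lost without replicate 1, 3 or 4, at -1.14, -1.27 and -1.21. In iCre Lum fell from 515, 253, 412 and 419 CPM to 66.8, 28.2, 39.6 and 63.5 CPM with TGFβ (-2.99 ± 0.30, adjusted p = 2.91e-05) and to 219, 141, 129.8 and 120.1 CPM with TNFα (-1.36 ± 0.24, adjusted p = 0.00272). With IL-1β in iCre it was -0.65 without the block (adjusted p = 0.0608) and called with it (-0.62, adjusted p = 4.89e-13; -0.32 with block and GC correction) and without replicate 2 (-0.74).

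Fibromodulin, which guides lysyl oxidase cross-linking of collagen, varied widely between replicates of a group. In LacZ Con it was 235, 21.2, 90.3 and 74.7 CPM, and in LacZ IL-1β 54.2, 6.76, 15.9 and 9.87 CPM. In each replicate the IL-1β library was below its own Con library, but the ranges overlapped (-2.28 ± 0.78, adjusted p = 0.0641). The difference was called without replicate 1 (-2.53) or 2 (-2.32). With the block Fmod was called lower with IL-1β (-2.30), TNFα (-1.55) and bFGF (-1.83) in LacZ and with the same ligands in iCre (-0.96, -3.20 and -1.95). The iCre values were also called without the block for TNFα when replicate 1 was left out (-3.85, against -2.28 with all) and for bFGF when replicate 2 was (-1.85). TGFβ was the exception. In iCre the level went from 69.9, 11.02, 43.8 and 33.1 CPM to 108, 172, 90.4 and 53.4 CPM, a rise of 1.44 ± 0.49 (adjusted p = 0.0386) present in all 4 same-numbered pairs. This call was lost without replicate 3 (1.56) or 4 (1.59), with the GC correction alone (adjusted p = 0.0596) and with raw library totals. Without replicate 2 the value was 0.80, adjusted p = 0.0364. In LacZ TGFβ the 81.0, 96.8, 68.6 and 46.9 CPM overlapped Con (-0.51 ± 0.55, adjusted p = 0.504). This value depended on single replicates, being 0.20 without replicate 1 and called lower without replicate 2 (-1.01, adjusted p = 0.0494). The difference between the viruses was 1.92 ± 0.83 and did not pass (adjusted p = 0.266; with the block 0.117).

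PRELP, a class II protein that anchors basement membrane to connective tissue, fell with TGFβ and passed with no other ligand in the unblocked fits of all 4 replicates. LacZ Con was at 1046, 253, 951 and 941 CPM and LacZ TGFβ at 167, 99.8, 317 and 258 CPM, with replicate 2 the lowest of both groups. Its Con value lay among the TGFβ values of the other replicates, so that the ranges overlapped although all 4 same-numbered pairs fell (-1.92 ± 0.46, adjusted p = 0.00753). In iCre the values were 801, 147, 485 and 464 CPM in Con and 270.0, 48.5, 119 and 97.3 CPM with TGFβ (-1.81 ± 0.55, adjusted p = 0.0253). The LacZ call was lost without replicate 1 (-1.66, adjusted p = 0.0592) and the iCre call without replicate 3 (-1.75, adjusted p = 0.11) or 4 (-1.69, adjusted p = 0.11). TNFα gave the highest mean, 996 ± 439 CPM in LacZ, called higher with the block (0.36, adjusted p = 0.000131), where IL-1β was called lower (-0.32, adjusted p = 0.00425; also without replicate 2, -0.41).

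Osteomodulin, an osteoblast keratan sulphate proteoglycan that binds hydroxyapatite, was the least abundant member and fell with every ligand. The 4 LacZ Con libraries had 7.37, 8.81, 8.82 and 6.07 CPM, while the TGFβ libraries had 1.02, 1.43, 1.66 and 1.17 CPM, the IL-1β libraries 1.89, 3.72, 1.71 and 0.997 CPM, the TNFα libraries 1.87, 2.76, 2.43 and 0.909 CPM and the bFGF libraries 3.20, 4.68, 3.18 and 2.36 CPM. No ligand library reached the lowest Con library. The log2 fold changes were -2.53 ± 0.21, -1.89 ± 0.34, -1.95 ± 0.30 and -1.19 ± 0.23, with adjusted p = 1.22e-05, 0.00361, 0.00155 and 0.0105. In iCre Con Omd was at 9.07, 9.70, 4.80 and 3.86 CPM, and it was at 0.397, 0.814, 0.449 and 0.166 CPM with TGFβ (-3.90 ± 0.48, adjusted p = 9.56e-05), 0.673, 1.47, 0.601 and 0 CPM with IL-1β (-3.27 ± 0.75, adjusted p = 0.0144) and 0.407, 0.238, 0.292 and 0 CPM with TNFα (-4.77 ± 0.64, adjusted p = 0.000627). The bFGF call was lost without replicate 1 (-1.19) or 3 (-1.10), and the IL-1β call in iCre likewise (-3.10 and -3.35). With bFGF in iCre the difference was -1.11 (adjusted p = 0.306) and was called with the block (-1.26, adjusted p = 0.000128) and without replicate 2 (-1.52). With block and GC correction the iCre values were -3.08, -2.55 and -3.94 for TGFβ, IL-1β and TNFα, all called. With the correction alone that with IL-1β was -2.45 and not called (adjusted p = 0.0597). The iCre TNFα values rest on 16, 10, 15 and 0 counts.

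Osteoglycin, the class III member that is highly expressed by cardiac fibroblasts, fell with all 4 ligands in LacZ. Its levels were 629, 1364, 507 and 452 CPM in LacZ Con, 68.5, 238, 89.2 and 81.1 CPM with TGFβ, 146, 206, 119.7 and 107 CPM with bFGF, 151, 402, 161 and 124 CPM with TNFα and 126, 468, 102 and 81.5 CPM with IL-1β. Replicate 2 was the highest in each of these groups, and the IL-1β library of replicate 2 was the only ligand library inside the Con range. The log2 fold changes were -2.61 ± 0.46 (adjusted p = 0.00139), -2.33 ± 0.36 (adjusted p = 0.00418), -1.81 ± 0.45 (adjusted p = 0.017) and -1.90 ± 0.57 (adjusted p = 0.039). In iCre Ogn went from 579, 1309, 598 and 315 CPM in Con to 23.8, 128, 16.03 and 10.2 CPM with TGFβ (-3.96 ± 0.81, adjusted p = 0.00283), 66.6, 204, 71.7 and 12.8 CPM with IL-1β (-2.96 ± 0.71, adjusted p = 0.0181) and 18.3, 2.59, 3.15 and 1.88 CPM with TNFα (-6.72 ± 0.88, adjusted p = 0.000592). The IL-1β and TNFα calls in LacZ were lost without replicate 1, 3 or 4 (IL-1β -1.82, -1.83 and -1.82; TNFα -1.75, -1.84 and -1.80), and the IL-1β call in iCre without replicate 1 (-2.94) or 3 (-2.94). With bFGF in iCre the difference was -2.11 (adjusted p = 0.178) and was called with the block (-2.57, adjusted p = 7.27e-08) and without replicate 2 (-2.85). The iCre values with block and GC correction were -3.67, -2.48 and -6.30 for TGFβ, IL-1β and TNFα, all called. With the correction alone that with IL-1β was -2.17 and not called (adjusted p = 0.0734). Over the fits without one replicate the iCre values ranged from -4.88 to -3.75 for TGFβ and from -8.13 to -5.95 for TNFα, all called. Replicates 2, 3 and 4 of iCre TNFα were below all other Ogn libraries of the study, and replicate 1 stood above them.

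Podocan, a class V member that restrains smooth muscle cell growth, passed the unblocked test of all 4 replicates in 1 of the 15 pairwise comparisons, a fall with TNFα in iCre. Its levels there were 60.8, 112, 55.0 and 58.7 CPM in Con and 40.7, 34.2, 24.6 and 9.76 CPM with TNFα (-1.36 ± 0.39, adjusted p = 0.0284), a call that was lost without replicate 2 (-1.18, adjusted p = 0.0571) or 3 (-1.42, adjusted p = 0.103). In LacZ they were 88.5, 146, 50.7 and 48.9 CPM in Con and 28.9, 81.6, 21.3 and 20.2 CPM with TNFα, lower in all 4 same-numbered pairs but overlapping (-1.13 ± 0.50, adjusted p = 0.147; with the block -1.23, adjusted p = 5.8e-09). With bFGF in LacZ Podn was called lower in the blocked fit (-0.52, adjusted p = 0.00122; unblocked -0.38, adjusted p = 0.686). With IL-1β in iCre it was called higher in the blocked fit (0.60; unblocked 0.84, adjusted p = 0.285; without replicate 2 0.37, adjusted p = 0.181; with block and GC correction 0.39), at 87.4, 286, 83.3 and 51.2 CPM. With TGFβ in iCre the sign depended on replicate 2, whose 196 CPM stood far above the 40.2, 33.7 and 23.6 CPM of the others. The log2 fold change was 0.048 ± 0.59 with all replicates and -0.82 without replicate 2 (adjusted p = 0.00133).

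In iCre cells as a whole TGFβ changed 7 of 9 members, 2 higher and 5 lower, where 37.4% of all genes passed (18.6% higher and 18.8% lower). IL-1β lowered 3 (16.3%, 9.38% higher and 6.88% lower), TNFα lowered 5 (27%, 14.7% and 12.3%) and bFGF changed none (2.42%, 1.79% and 0.635%). The calls made again in every fit without one replicate number were Dcn, Bgn, Lum, Omd and Ogn for TGFβ and Aspn, Lum, Omd and Ogn for TNFα. For bFGF 3 members had an unadjusted p under 0.05 and DESeq2 called none, and with the block 6 were called, Bgn higher and Dcn (-0.41), Aspn, Fmod, Omd and Ogn lower, where 16.7% of all genes passed. With the block IL-1β gave 8 called members, 3 higher and 5 lower (33.8% of all genes). The 12 libraries of iCre cells given TGFβ, IL-1β or TNFα also differed from the other 28 in the relation of counts to base composition. Their log2 CPM rose by 0.197 to 0.339 for each 10% of transcript GC relative to the average library, against -0.248 to 0.00268 elsewhere. With a GC correction alone Dcn and Fmod were not called for TGFβ (36.9% of all genes), and no member was called for IL-1β in iCre, where 9.74% of all genes passed. Of the 8 fibroblast markers 3 were higher and 2 lower with TGFβ in iCre, 1 and 1 with TNFα, 1 and none with bFGF and none was called with IL-1β. Of the 4 pericyte and smooth muscle markers 1 was higher with TGFβ and 1 higher and 2 lower with TNFα. With TGFβ 1 cardiomyocyte marker was lower. With TNFα 1 cardiomyocyte and 1 Schwann cell marker were lower and 1 endothelial marker was higher and 1 lower. With the block 3 fibroblast markers were higher and 4 lower with TGFβ and 2 and 2 with IL-1β. The counts were 2 and 6 with TNFα and 1 and 3 with bFGF. Of 4 leukocyte markers 1 was then higher and 1 lower with TGFβ, 2 higher with IL-1β and with TNFα and 1 lower with bFGF. The part of these markers was not tested. With block and correction together Dcn was called higher with TNFα in iCre (0.63, adjusted p = 0.000219) against -0.12 in the unblocked fit.

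**Figure D4:**
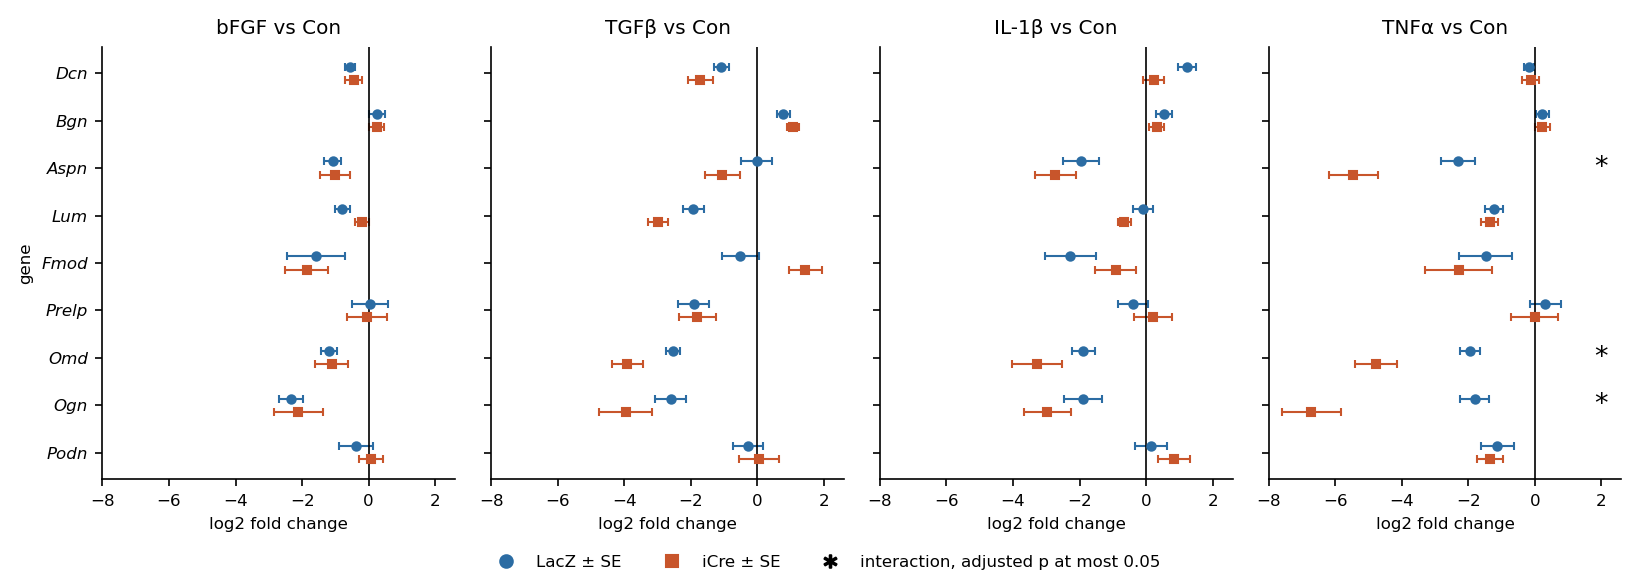
Log2 fold change of each ligand against Con (horizontal axes) for the 9 genes (vertical axis), in LacZ (blue circles) and iCre (orange squares), with bars for the SE of the fitted value and a star where the interaction of ligand and virus had an adjusted p of at most 0.05. Stars stand only at Aspn, Omd and Ogn under TNFα, where the iCre values lie about 2.82 to 4.92 below the LacZ values.

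The next question was how the members differed between iCre and LacZ at the same treatment. Without ligand no member passed (0.0754% of all genes did, 0.0278% higher and 0.0476% lower), 1 had an unadjusted p under 0.05 and DESeq2 called none. With the block 5 members were lower in iCre Con, namely Dcn (-0.64), Bgn (-0.30), Lum (-0.26), Fmod (-1.25) and Prelp (-0.80), where 14.5% of all genes passed. In each of these 5 all 4 same-numbered pairs were lower in iCre. In the same fit 2 of 8 fibroblast markers were higher and 5 lower, and 3 of 4 leukocyte and macrophage markers were lower, while 2 pericyte markers were higher and 2 lower. Of 3 tested cardiomyocyte markers 1 was lower. Summed fibroblast markers were at 19780.0 to 34373 CPM in iCre Con and 28437 to 44356 CPM in LacZ Con, which overlapped. Leukocyte markers were at 22.1 to 76.0 CPM and 45.9 to 138 CPM, which also overlapped. The part of these cells was not tested. Ogn, Omd and Aspn were close in the controls of both viruses, with log2 differences of -0.082 ± 0.45, -0.19 ± 0.29 and -0.24 ± 0.38. Under bFGF no member and no gene passed, 1 member had an unadjusted p under 0.05 and DESeq2 called none, and with the block 5 members were called, Podn (0.36) higher and Dcn (-0.48), Bgn (-0.29), Fmod (-1.37) and Prelp (-0.92) lower (13.9% of all genes), while 3 fibroblast and 2 leukocyte markers were lower and 2 pericyte markers higher. In that blocked fit 1 cardiomyocyte marker was also lower and 1 epicardial marker higher.

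Under TGFβ 1 member, Lum, was lower in iCre, at 66.8, 28.2, 39.6 and 63.5 CPM against 93.9, 77.3, 158 and 178 CPM (-1.39 ± 0.32, adjusted p = 0.0269), where 8.37% of all genes passed, 2.51% higher and 5.87% lower. Every iCre library was below every LacZ library, and the call was lost without replicate 3 (-1.17, adjusted p = 0.222) or 4 (-1.33, adjusted p = 0.115) and with the GC correction alone (adjusted p = 0.212; 0.921% of all genes). With the block 7 members were called, Lum, Dcn (-1.35), Aspn (-1.34), Omd (-1.65), Ogn (-1.97) and Prelp (-0.84) lower and Fmod (0.43) higher (20.8% of all genes). Without replicate 2 and without the block Dcn (-1.19), Aspn (-1.51), Omd (-2.01) and Ogn (-2.32) were called besides Lum (12.5% of all genes). In the unblocked fit of all 4 replicates 1 fibroblast marker was lower in iCre and 1 pericyte marker higher. With the block 3 fibroblast markers and 1 leukocyte marker were lower and 1 pericyte marker was higher. The part of these markers was not tested. With block and GC correction the differences of Dcn, Ogn and Lum were -0.57, -1.10 and -1.01, smaller than with the block alone (-1.39 for Lum) and still called, and Aspn (-0.28), Omd (-0.76) and Fmod (0.23) were no longer called. In the same fit Prelp was -1.05, larger than with the block alone, and Podn was called lower (-0.52, adjusted p = 0.0166), so that 5 members were called, all lower, where 9.53% of all genes passed. Bgn differed by -0.031 ± 0.11 between the viruses under TGFβ (adjusted p = 0.948).

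Under IL-1β 2 members were lower in iCre, where 16.1% of all genes passed, 7.14% higher and 8.98% lower. Dcn stood at 2233, 1054, 1192 and 1930.5 CPM in iCre and 6880.4, 2735, 4403 and 5428 CPM in LacZ, with no overlap (-1.62 ± 0.33, adjusted p = 0.00751), and Lum at 309.5, 210.2, 225 and 262 CPM and 614, 249, 462 and 494 CPM, lower in all 4 same-numbered pairs (-0.87 ± 0.25, adjusted p = 0.0358). The summed fibroblast markers, a sum weighted towards collagen genes, were also lower in iCre IL-1β. They were at 21361 to 33077 CPM against 33655 to 62161 CPM in LacZ IL-1β with no overlap. Of the 8 genes 2 were called lower and none higher (5 and 1 with the block). In the same comparison 1 pericyte and 1 cardiomyocyte marker were higher and 1 Schwann cell marker was lower. With the block 3 of 4 leukocyte markers were lower. The part of these markers in the differences of Dcn and Lum was not tested. Without replicate 3 neither call was made (-1.55, adjusted p = 0.0641 for Dcn and -0.82, adjusted p = 0.186 for Lum), and that of Lum was also lost without replicate 1 or 4. With the GC correction alone neither was called (-0.86, adjusted p = 0.154; -0.50, adjusted p = 0.273). With block and correction both were (-0.85, adjusted p = 6.04e-07; -0.44, adjusted p = 0.00275), together with Bgn (-0.65) and Prelp (-0.54), where 22.4% of all genes passed. The blocked fit without correction called 8 members, Podn (0.39) higher and 7 lower, among them Bgn (-0.53) and Prelp (-0.36), where 29.5% of all genes passed. In it Aspn, Ogn and Omd differed by -1.06, -1.30 and -1.81, which the correction reduced to -0.025, -0.44 and -0.95.

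Under TNFα the 3 neighbouring genes of chromosome 13 were lower in iCre. Ogn was at 18.3, 2.59, 3.15 and 1.88 CPM in iCre TNFα and 151, 402, 161 and 124 CPM in LacZ TNFα, Aspn at 6.99, 0.642, 1.54 and 1.23 CPM and 14.7, 62.0, 20.1 and 13.3 CPM, and Omd at 0.407, 0.238, 0.292 and 0 CPM and 1.87, 2.76, 2.43 and 0.909 CPM. In each gene every iCre library was below every LacZ library, and the highest iCre library was replicate 1. The log2 differences were -4.98 ± 0.80 (adjusted p = 0.00157), -3.37 ± 0.79 (adjusted p = 0.0102) and -3.01 ± 0.67 (adjusted p = 0.00796), or 31.7-fold, 10.4-fold and 8.06-fold lower in iCre. Over the 4 fits that left out one replicate number they ranged from -6.46 to -4.22, -4.78 to -2.30 and -3.41 to -2.82, and Ogn was called in all 4, Aspn and Omd in all but that without replicate 3 (-3.31, adjusted p = 0.065 and -3.02, adjusted p = 0.0661). With block and GC correction they were -4.52 (adjusted p = 0.000538), -2.40 (adjusted p = 0.0287) and -2.22 (adjusted p = 0.00486). With the GC correction alone they were -4.12 (adjusted p = 0.00421), -2.31 (adjusted p = 0.05, not called) and -2.09 (adjusted p = 0.0444). Ecm2, the family gene next to them, was also lower, at 4.12, 1.31, 1.499 and 0.713 CPM against 12.6, 17.2, 11.97 and 10.4 CPM (-2.74 ± 0.47, adjusted p = 0.00208). The Ecm2 value is without the GC correction. Cenpp, which spans the cluster on the other strand, was at 2.62 CPM in iCre TNFα and 2.13 CPM in LacZ TNFα, as summed counts of the 4 libraries scaled to their raw totals. The summed fibroblast markers, a sum weighted towards collagen genes, were also lower in iCre TNFα. They were at 13975 to 21419 CPM against 23882 to 32098 CPM in LacZ TNFα with no overlap. Of the 8 genes 2 were called higher and 4 lower (2 and 5 with the block; median log2 difference -0.70, against 0 over all genes). The pericyte and smooth muscle markers were at 352 to 1234 CPM against 143 to 500.4 CPM, with 2 of 4 called higher and 1 lower, and 1 of 2 Schwann cell markers was lower. Their part and that of the fibroblast markers in the differences of the members was not tested.

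Dcn was the other member called lower under TNFα, and its sign changed with the GC correction. Its call was also lost without replicate 3 (-0.47) or 4 (-0.53). The levels were 1664, 937, 1100.0 and 1285 CPM in iCre and 1924, 1591, 1915 and 1960.5 CPM in LacZ (-0.55 ± 0.18, adjusted p = 0.0497), and after GC correction the difference was 0.25 (adjusted p = 0.35), or 0.23 with the block as well (adjusted p = 0.182). In all, 4 of 9 members passed under TNFα, where 27.3% of all genes did (14.8% higher and 12.6% lower), and with the block 6 were called, adding Fmod (-2.96, or -3.12 with block and correction) and Prelp (-1.54), both also called without the block when replicate 1 was left out (-3.40 and -2.02), where 32.2% of all genes were. With block and correction 6 were called lower (28.5% of all genes), with Bgn (-0.41, adjusted p = 0.0239) in place of Dcn.

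**Figure D5:**
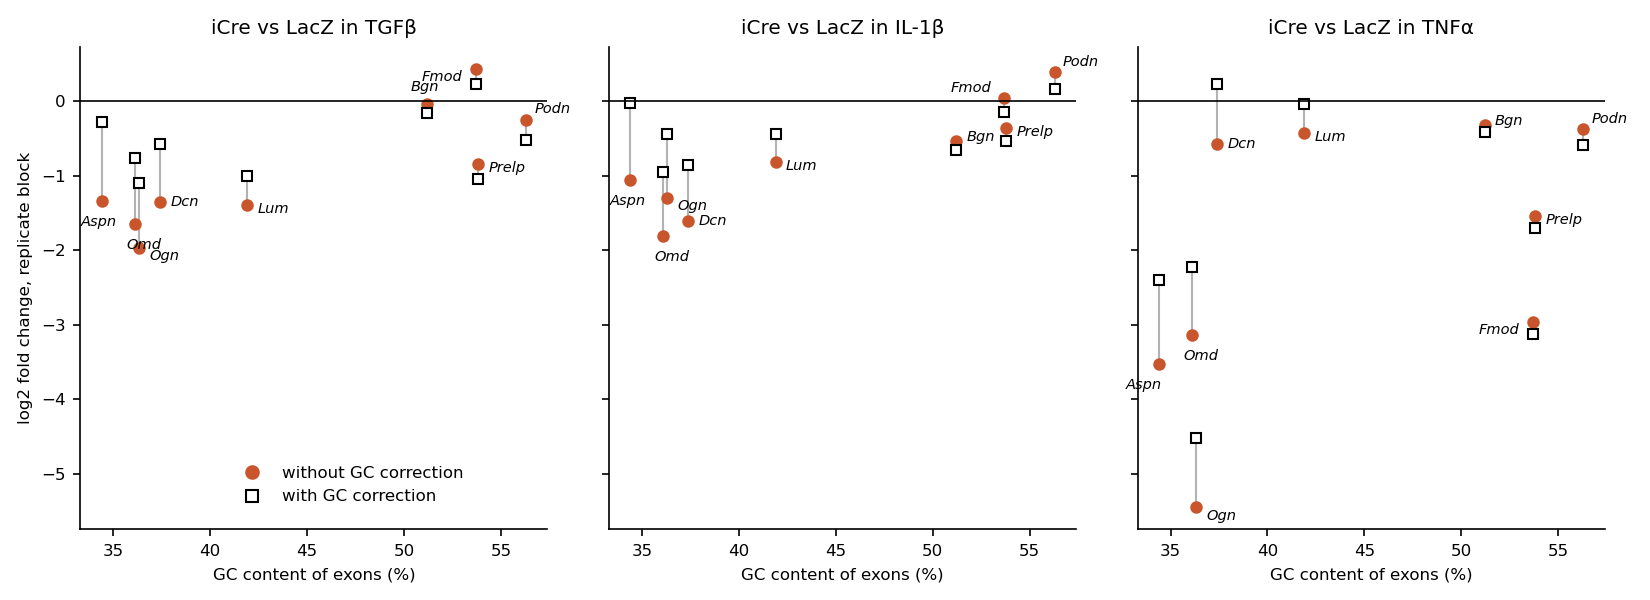
Log2 fold change of iCre against LacZ with the replicate block (vertical axis) against the GC content of each gene's longest annotated transcript in percent (horizontal axis), under TGFβ, IL-1β and TNFα, before (filled circles) and after (open squares) a GC correction. The correction moved the 5 members of 34.4 to 41.9% GC upward and the 4 members of 51.2 to 56.3% GC downward in all 3 treatments, and Ogn under TNFα stayed lowest.

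Whether a ligand acted differently in the 2 viruses was tested as an interaction over 16 libraries. For TNFα 3 members passed, where 16.1% of all genes did (8.38% higher and 7.7% lower). These were Ogn (-4.92 ± 0.95, adjusted p = 0.00218), Omd (-2.82 ± 0.68, adjusted p = 0.00954) and Aspn (-3.15 ± 0.91, adjusted p = 0.0255), each falling further with TNFα in iCre. The Ogn call was made without each replicate number, that of Omd was lost without replicate 3 (-3.05, adjusted p = 0.0806) and that of Aspn without replicate 3 (-3.03, adjusted p = 0.17) or 4 (-3.24, adjusted p = 0.103). Over these fits Ogn ranged from -6.41 to -4.14, Omd from -3.05 to -2.49 and Aspn from -4.54 (without replicate 1) to -2.05 (without replicate 2). With the GC correction alone (12.1% of all genes) Ogn was called (-4.14, adjusted p = 0.0087) and Aspn and Omd were not (adjusted p = 0.133 and 0.0681). With the block Fmod was called as well (-1.49; 25.1% of all genes). With block and correction Ogn (-4.16), Omd (-1.92), Fmod (-1.65) and Dcn (0.76, higher) were called, where 21.3% of all genes were, and Aspn was at adjusted p = 0.0508. No member passed for bFGF (0% of all genes), TGFβ (4.51%, 0.893% higher and 3.62% lower) or IL-1β (7.71%, 2.76% and 4.95%), where 0, 3 and 1 members had an unadjusted p under 0.05 and DESeq2 called none. With the block 4 members passed for TGFβ, Aspn (-1.10), Lum (-1.15), Omd (-1.39) and Ogn (-1.78), where 8.04% of all genes did, and none of them with block and correction (2.58%). Without replicate 2 Aspn (-1.20) and Ogn (-2.18) passed without the block (5.27%). For IL-1β 4 passed with the block (16.9% of all genes), Dcn (-0.96), Lum (-0.53) and Ogn (-1.07) lower and Fmod (1.33) higher, and 2 with block and correction (12.3%), Fmod (1.16) and Bgn (-0.36).

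The fibrotic and the inflammatory ligands were also compared directly in LacZ cells. Between TGFβ and IL-1β 5 of 9 members differed, where 24.9% of all genes did (12.6% higher and 12.3% lower). Aspn and Fmod (1.73 ± 0.56, adjusted p = 0.0464) were higher with TGFβ, and Dcn, Lum and Prelp (-1.56 ± 0.41, adjusted p = 0.0176) were higher with IL-1β. The calls of Dcn and Lum were made again without each replicate number, while those of Aspn, Fmod and Prelp were not (without replicate 4 1.76, 1.64 and -1.65). The value of Fmod ranged from 1.27 to 2.66. With the block Ogn was also called, higher with IL-1β (-0.54; 31.9% of all genes). Between TGFβ and IL-1β 3 fibroblast, 2 pericyte and 1 cardiomyocyte marker were higher with TGFβ and 1 fibroblast and 1 Schwann cell marker with IL-1β. In addition 2 fibroblast markers were higher with IL-1β than with TNFα. Between IL-1β and TNFα Dcn and Lum were higher with IL-1β, though without replicate 3 neither call was made (1.46, adjusted p = 0.053 and 1.21, adjusted p = 0.118), 2 of 9 members where 9.62% of all genes passed (4.84% higher and 4.78% lower). The Lum call was also lost without replicate 1 (1.01, adjusted p = 0.0998) or 4 (1.14, adjusted p = 0.126). With the block 7 members differed between these 2 ligands, with Bgn (0.28) and Podn (1.28) also higher with IL-1β and Fmod (-0.79), Prelp (-0.68) and Ogn (-0.32) higher with TNFα (24.2% of all genes).

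The members did not follow one pattern over the 40 libraries. The highest correlations of log2 CPM between members were those of Omd with Ogn (Pearson r = 0.91), Aspn with Ogn (0.83), Dcn with Lum (0.80) and Aspn with Omd (0.76), while that of Dcn with Bgn was -0.048. Among 13090 genes of at least 1 CPM the profiles most like each member included those of Cd302 and Creg1 for Dcn (0.89 each), Fkbp9, Rpn2 and Fstl1 for Bgn (0.94, 0.94 and 0.93) and Rnft1, Hint3 and Plagl1 for Aspn (0.87, 0.87 and 0.86). They were Itm2b, Tmem106b and Pdcd4 for Lum (0.89 each), Plce1, Prss23 and Ccdc80 for Fmod (0.94, 0.93 and 0.93) and Sumf1, Arrb1 and Rhoj for Prelp (each 0.93 to 2 decimals). For Omd they were Gulp1, Zmat1 and Ogn (0.92, 0.92 and 0.91), for Ogn Unc5c, Zfp383 and Adamtsl1 (0.95, 0.94 and 0.91), and for Podn Scp2, F3 and Thbs3 (0.87, 0.84 and 0.83). These values describe libraries that share treatments, replicate numbers and base composition.

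Of 9 further family genes, 1 rose and 4 fell with TGFβ in LacZ, where 36.9% of all genes passed. Ecm2, a matrix protein with the family's repeats, went from 36.9, 18.1, 24.3 and 25.8 CPM to 3.06, 3.43, 3.74 and 4.05 CPM (-2.87 ± 0.22, adjusted p = 6.74e-06) and was lower with all 4 ligands (-1.82, -1.01 and -1.53 for IL-1β, TNFα and bFGF). Nyx (nyctalopin) fell from a mean of 0.718 CPM to 0.0379 CPM with TGFβ (-4.01, adjusted p = 0.00023). At the depth of these libraries the TGFβ mean is a few counts at most, so the size of the fall is uncertain. Kera, the corneal proteoglycan keratocan, had 6, 21, 8 and 5 counts in the LacZ Con libraries and none in any LacZ TGFβ library. Tsku (tsukushi) rose with IL-1β from 36.8, 42.1, 42.4 and 40.1 CPM to 123, 102, 112 and 128 CPM (1.54 ± 0.094, adjusted p = 6.35e-06), with TNFα (1.33) and with bFGF (0.50). In iCre TGFβ raised 2 of the 9 and lowered 4 (37.4% of all genes), IL-1β raised 1 and lowered 1 (16.3%), TNFα raised 1 and lowered 2 (27%), and bFGF lowered 1 (2.42%). Between the viruses 1 was lower in iCre under TGFβ (8.37%), 2 under IL-1β (16.1%) and 2 under TNFα (27.3%), where Tsku was at -0.71 ± 0.11 (adjusted p = 0.00157), and none under Con or bFGF. With the block 1 was higher and 2 lower in Con (14.5% of all genes), 1 was higher in bFGF (13.9%), and 2, 4 and 4 were lower under TGFβ, IL-1β and TNFα (20.8, 29.5 and 32.2%). These values, and those of the enzymes and proteases that follow, are without the GC correction. That correction changed several member calls in iCre cells given TGFβ, IL-1β or TNFα.

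Of 26 enzymes that build the glycosaminoglycan chains, 12 rose and 2 fell with TGFβ in LacZ, where 36.9% of all genes passed. The largest rises were those of the sulphotransferases Chst3 (0.259 to 4.68 CPM, log2 fold change 4.21 ± 0.52, adjusted p = 0.000132) and Chst5 (3.45 ± 0.75, adjusted p = 0.00455) and the chondroitin synthase Chsy3 (2.68 ± 0.19, adjusted p = 5.78e-06). IL-1β raised 9 and lowered 2 (20.7% of all genes), with Chst11, which sulphates chondroitin, going from 70.8, 80.0, 63.9 and 60.3 CPM to 261, 162, 184 and 216 CPM (1.60 ± 0.15, adjusted p = 9.9e-05). TNFα raised 4 and lowered 5 (21.3%), and bFGF raised 4 and lowered none (11.6%; with the block 10 and none, 27.3%). In iCre 12 rose and 5 fell with TGFβ (37.4%), 8 and 1 with IL-1β (16.3%; with the block 14 and 2, 33.8%), 11 and 3 with TNFα (27%), and none was called with bFGF (2.42%; with the block 9 rose, 16.7%). Between the viruses none passed under Con (0.0754%) or bFGF (0%), 2 were higher and 4 lower in iCre under TGFβ (8.37%), 3 and 3 under IL-1β (16.1%) and 12 and 5 under TNFα (27.3%). With the block 6 were higher and 1 lower in Con (14.5%), 4 higher in bFGF (13.9%), 7 higher and 6 lower under TGFβ (20.8%) and 5 and 6 under IL-1β (29.5%). Xylt1, the xylosyltransferase that starts the chains, was 46.3, 115, 72.9 and 57.8 CPM in iCre TNFα and 11.6, 8.42, 7.41 and 9.24 CPM in LacZ TNFα (3.01 ± 0.28, adjusted p = 0.000143; interaction 2.16 ± 0.34, adjusted p = 0.000462). These Xylt1 values are without the GC correction.

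Of 9 proteases known to cleave members of the family, 2 rose and 4 fell with TGFβ in LacZ (36.9% of all genes), and 4 rose and 1 fell with IL-1β (20.7%; with the block 7 and 2, 33.5%). The stromelysin Mmp3, which cleaves decorin, was at 990.3, 1469.7, 1328 and 1135 CPM in LacZ Con, 10669.8, 4379.9, 6563 and 8098 CPM with IL-1β and 337, 497, 782 and 758 CPM with TGFβ (2.61 ± 0.28, adjusted p = 0.000185, and -1.04 ± 0.24, adjusted p = 0.00709). The collagenase Mmp13 rose with IL-1β (3.63 ± 0.65, adjusted p = 0.00334), and the aggrecanase Adamts5 fell with TGFβ (-1.32 ± 0.29, adjusted p = 0.00533). TNFα raised 1 and lowered 2 (21.3%; with the block 4 and 3, 35.5%), and bFGF raised 1 and lowered 2 (11.6%; 2 and 3, 27.3%). In iCre TGFβ raised 3 and lowered 3 (37.4%), IL-1β raised 2 and lowered 1 (16.3%; 5 and 3, 33.8%), TNFα raised 1 and lowered 3 (27%; 3 and 4, 36.1%), and none was called with bFGF (2.42%; 2 and 3, 16.7%). Between the viruses none was called under Con (0.0754%) or bFGF (0%), and 1 was lower in iCre under TGFβ (8.37%), 4 under IL-1β (16.1%) and 3 under TNFα (27.3%). With the block 3 were higher and 4 lower in Con (14.5%), 1 and 2 in bFGF (13.9%), 2 and 2 under TGFβ (20.8%), none and 6 under IL-1β (29.5%) and 2 and 4 under TNFα (32.2%). Mmp3 under IL-1β was at -2.45 ± 0.33 (adjusted p = 0.000779), and Adamts5 under TNFα at -2.68 ± 0.67 (adjusted p = 0.0142).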

How the data were processed

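Polyadenylated RNA of 40 cardiac fibroblast libraries was measured, 4 for each of 10 groups. The authors aligned the reads to mm10 with STAR and deposited raw counts per Ensembl gene, and the submitters' processing notes name HTSeq 0.10.0 and FastQC 0.10.1. The strand setting is not given in the sources used here. Counts of all 55414 rows were used as deposited, and of these 52133 identifiers were in GENCODE M21, with 99.59% of the counts. Genes with at least 10 counts over all libraries (25210) were scaled by TMM and tested with edgeR 4.0.16 (quasi-likelihood, R 4.3.3) over the 8 libraries of each of 15 pairwise comparisons or the 16 of each of 4 interactions, with Benjamini-Hochberg adjustment over all tested genes and a threshold of 0.05. SE is the standard error of the fitted log2 fold change. CPM are counts scaled to the TMM-adjusted library size.

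The alternatives were relative log expression scaling, raw library totals, filterByExpr, no filter, protein-coding genes alone, a fit of all 40 libraries, the replicate number as a block, a GC correction (a spline with 6 degrees of freedom over the GC content of each gene's longest transcript), both together, DESeq2 1.42.0 and the omission of each replicate number. The labels number the replicates in every group, and the numbers paired the samples. Deviations from group means correlated at 0.58 on average between libraries of the same number and at -0.158 between others, over 9469 genes, and in each pairwise comparison every same-numbered pair was above 0.1. Scripts were tested on simulated data. The members were the 9 listed genes. Other genes were named from lists of further family genes, chain enzymes, proteases and cell markers, and by the 3 highest correlations with each member among genes averaging 1 CPM or more, of which 1 is not reported here. The members, named without a threshold on any value, and the lists were chosen with earlier results of these data known. Promoter windows were read from the RefSeq table of GRCm38.p6. All count columns were used. The precision is limited by 4 replicates, and p-values measure the spread between these samples. In edgeR the spread of a gene is also drawn towards that of all tested genes. The smallest p-values of the blocked fits therefore do not rest on the 4 pairs of a gene alone.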

Additional observations from a re-analysis of the deposited data

Results flagged for a closer look

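In 21 of the 90 sets of 4 libraries (9 genes in 10 groups) one library stood apart from the other 3 by Dixon's 95% criterion, where chance flags about 1 in 20. Replicate 2 was that library in 18 sets, the highest in 14 and the lowest in 4, and replicate 1 in 3.

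Replicate 2 was the low library for Dcn in LacZ TNFα (1591 CPM), Bgn in iCre Con (3699.7 CPM), Lum in LacZ TNFα (129.7 CPM) and Prelp in LacZ Con (253 CPM). It was the high library for Aspn in LacZ Con (239 CPM), LacZ TNFα (62.0 CPM), iCre bFGF (114 CPM) and iCre TGFβ (129 CPM). For Ogn it was high in LacZ TGFβ (238 CPM), LacZ IL-1β (468 CPM), LacZ TNFα (402 CPM), iCre bFGF (442 CPM) and iCre TGFβ (128 CPM). For Podn it was high in LacZ TGFβ (136 CPM), LacZ TNFα (81.6 CPM), iCre Con (112 CPM), iCre TGFβ (196 CPM) and iCre IL-1β (286 CPM). Replicate 1 was the high library of iCre TNFα for Aspn (6.99 CPM), Fmod (25.8 CPM) and Ogn (18.3 CPM). Replicate 1 was the highest library of Aspn and Ogn in 1 of 10 groups each, this one, and of Fmod in 8 of 10.

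The effect of TNFα differed between iCre and LacZ for 3 members by the interaction test, Aspn (-3.15), Omd (-2.82) and Ogn (-4.92, log2 scale). In iCre TNFα the other 3 Ogn libraries were between 1.88 and 3.15 CPM.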

How the results depend on the processing

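Values are the number of the 9 members called, each with the percentage of all genes called in the same fit in brackets. The unchanged edgeR fit called 4 (20.7%), 4 (21.3%) and 4 (11.6%) for IL-1β, TNFα and bFGF in LacZ, 3 (16.3%) and 0 (2.42%) for IL-1β and bFGF in iCre, 0 (0.0754%), 0 (0%), 1 (8.37%), 2 (16.1%) and 4 (27.3%) for iCre against LacZ in Con, bFGF, TGFβ, IL-1β and TNFα, 0 (4.51%), 0 (7.71%) and 3 (16.1%) for the TGFβ, IL-1β and TNFα interactions, 5 (24.9%) for TGFβ against IL-1β and 2 (9.62%) for IL-1β against TNFα. With the replicate block they were 7 (33.5%), 8 (35.5%) and 8 (27.3%) for IL-1β, TNFα and bFGF in LacZ, 8 (33.8%) and 6 (16.7%) for IL-1β and bFGF in iCre, 5 (14.5%), 5 (13.9%), 7 (20.8%) and 8 (29.5%) for iCre against LacZ in Con, bFGF, TGFβ and IL-1β, 4 (8.04%) and 4 (16.9%) for the TGFβ and IL-1β interactions and 7 (24.2%) for IL-1β against TNFα. With block and GC correction they were 7 (33.9%), 9 (36.1%) and 8 (27.3%) for IL-1β, TNFα and bFGF in LacZ, 8 (29.4%) and 6 (16.5%) for IL-1β and bFGF in iCre, 5 (14.8%), 6 (14.1%), 5 (9.53%) and 4 (22.4%) for iCre against LacZ in Con, bFGF, TGFβ and IL-1β, 2 (12.3%) for the IL-1β interaction and 7 (24.6%) for IL-1β against TNFα. With the GC correction alone they were 0 (9.74%) for IL-1β in iCre, 0 (0.921%), 0 (9.19%) and 2 (22.9%) for iCre against LacZ in TGFβ, IL-1β and TNFα, and 1 (12.1%) for the TNFα interaction. For iCre against LacZ in TGFβ DESeq2 gave 3 (13.6%), filterByExpr 3 (20.1%), protein-coding genes alone 2 (14.7%) and the fit of all 40 libraries 2 (14.2%). The fit of all 40 libraries gave 1 (16.1%) for bFGF in LacZ and 3 (29.1%) for TGFβ against IL-1β, and no filter gave 1 (5.37%) for iCre against LacZ in IL-1β and 3 (9.12%) for TGFβ against IL-1β.

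Leaving out each replicate number in turn gave 1 to 7 (9.22 to 23.4%), 1 to 5 (10.5 to 23.5%) and 1 to 5 (1.32 to 18.2%) for IL-1β, TNFα and bFGF in LacZ, 0 to 4 (6.85 to 18.1%) and 0 to 5 (0 to 12.7%) for IL-1β and bFGF in iCre, 0 to 1 (0 to 1%), 0 to 5 (2.01 to 12.5%), 0 to 2 (6.18 to 16.6%) and 1 to 6 (13 to 27.1%) for iCre against LacZ in bFGF, TGFβ, IL-1β and TNFα, 0 to 2 (1.28 to 5.27%) and 1 to 3 (5.39 to 15.4%) for the TGFβ and TNFα interactions, 2 to 4 (14.8 to 23.7%) for TGFβ against IL-1β and 0 to 4 (3.68 to 12.7%) for IL-1β against TNFα. The counts for TGFβ in both viruses, for TNFα in iCre and for the bFGF interaction stayed within 1.5 times under every alternative. Among values called in at least 1 of the fits compared, signs changed for Podn with TGFβ in iCre (0.048, with block and GC correction -0.63, and -0.82 to 0.26 without single replicates), Podn in iCre against LacZ in TGFβ (-0.52 with block and correction), Dcn with TNFα in iCre (0.63 with both) and Dcn in iCre against LacZ in TNFα (0.25 with the correction, 0.23 with both). Values called in neither fit also changed sign, such as Ogn in iCre against LacZ in bFGF (0.17, with the block -0.45). Of 171 log2 fold changes, the replicate block kept 96 with their sign on the same side of the threshold and brought 64 past it, and 11 called in neither fit changed sign. Raw library totals moved the all-gene median for TGFβ from -0.17 to -0.57 in LacZ. For Omd in iCre TNFα depth was limiting, with at most 16 counts in a library. The cause of these shifts was not tested.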
